A study of Mus musculus with 12 samples.

Results

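The 8 genes described are Parp14, Parp9, Dtx3l, Parp12, Parp10, Parp11, Parp8 and Parp1. They were chosen by name, with earlier results of these data known. Each matched 1 of the 43278 rows of the gene table, and all 8 passed the filter on low values in every comparison. Poly(A) RNA was sequenced from 12 cultures of PMφs, macrophages that thioglycolate draws into the peritoneal cavity of mice. The cells came from wild-type C57BL/6J males and females of 8 to 12 wk of age, and no group carried a transgene or a deleted gene. Cells of several littermates were pooled and the pool was divided among 4 groups, so a library is a pool and not an animal, and libraries with the same replicate number in the labels were treated as parts of 1 pool. Control PMφs received neither agent. The oxLDL group was cultured with 100 µg/ml oxidized low-density lipoprotein for 24 h, the LPS group received 10 ng/ml LPS, and the oxLDL+LPS group received both, with 3 libraries in each group. How long LPS was present is not stated for these libraries.

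PARP enzymes take ADP-ribose from NAD and attach it to proteins or nucleic acids. Parp1 builds long chains of ADP-ribose at DNA breaks, whereas Parp8, Parp10, Parp11, Parp12 and Parp14 attach a single unit, and Parp9, which carries macrodomains that bind ADP-ribose, works in a complex with the ubiquitin ligase Dtx3l. In macrophages, LPS acts through TLR4 and leads to the release of type I interferon, which acts back on the cells through the receptor subunits Ifnar1 and Ifnar2, the kinases Jak1 and Tyk2 and factors that include Stat2 and Irf9. Several PARP genes and Dtx3l are known as targets of that pathway. No group was given interferon, so the data show the response of these genes to LPS and not to interferon itself.

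The values are read counts that the authors divided by 1 factor per library, and they are called normalized counts here. From the spacing of the values, 16.7 to 26.2 M reads had been assigned to genes in a library (median 20.5 M). All 8 of 8 macrophage markers reached 10 in every library, with sums of 292861 to 383382. Of these, 3 were higher in LPS against control at an adjusted p under 0.1 (limma) and 0 lower. They were Adgre1 at a log2 fold change of 1.53, Mertk at 1.31 and Fcgr1 at 2.81. The summed markers of other cells were low, at 39 to 86 for B cells, 13 to 241 for T cells, 57 to 249 for neutrophils and 10 to 77 for plasmacytoid dendritic cells, a major source of interferon. The last of these was 10 to 33 without LPS and 38 to 77 with it, and the neutrophil sum was 57 to 77 without and 76 to 249 with it. The markers within these sums did not move together. Ccr9 had means of 6.33 in control and 29.3 in LPS-treated PMφs, while Siglech was at 0 and 1.0 and Klk1 at 0 in both. Among the neutrophil markers, S100a8 rose from 34.0 to 116 and Cxcr2 fell from 39.7 to 1.67. Of the 6 T cell markers, 5 were under 10 in every library, and the sum was 13 to 28 without LPS and 83 to 241 with it, carried by the kinase gene Lck. Of the neutrophil markers 1 was at 0 throughout. Markers of mesothelial cells and fibroblasts summed to 2843 to 17439, and control libraries alone spanned 3186 to 13737. With the replicate number as a block (limma), Dcn was higher in LPS against control, with a log2 fold change of 0.74 (adjusted p = 0.00205). Upk3b was lower in oxLDL+LPS against LPS, at −0.77 (adjusted p = 0.0475). The other mesothelial and fibroblast markers tested passed an adjusted p of 0.1 in neither comparison, and no marker of that list did without the block. The part of these cells in the results below was not tested. In bulk RNA, fewer cells that express a gene and less of its RNA per cell cannot be told apart.

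In control PMφs all 8 genes were expressed. LPS was the agent that moved them, with Parp14, Parp12, Dtx3l, Parp9, Parp8, Parp10 and Parp11 between 7.29-fold and 27.4-fold higher and Parp1 at 0.379 of its control level. The 7 genes that rose and the 1 that fell were all called (limma, adjusted p under 0.1 after Benjamini-Hochberg adjustment over all genes tested). LPS changed much of the transcriptome, so that 31.4% of the 13006 genes tested were called higher and 30.3% lower. A call was therefore common among all genes. By size, 1.65% of the genes tested had a larger log2 fold change than Parp14, and 4.36% had a larger one than Parp11, the least raised of the 7.

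Parp14 encodes a large enzyme with macrodomains and is found at 35832874 to 35871544 of chromosome 16 (GRCm38, minus strand). Its normalized count was 1407, 1489 and 1685 in the 3 control libraries and 39649, 35799 and 51280 in the LPS libraries. The count was thus far higher with LPS. The log2 fold change was 4.78 (SE, the standard error, 0.15; adjusted p = 3.57e-07), and with 1 library or 1 replicate number left out it stayed between 4.63 and 4.89.

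Dtx3l and Parp9, the partners in the ubiquitin ligase complex, lie beside Parp14 on chromosome 16. Dtx3l spans 35926511 to 35939151 on the minus strand and Parp9 spans 35938470 to 35972605 on the plus strand, so that the 3 genes lie within 140 kb. Parp9 and Dtx3l start head to head and overlap by 682 bases, of which 458 are exonic in both genes, 9.4% of the exonic length of Parp9 and 8.0% of that of Dtx3l. Whether counting used the strand is not stated, so reads in that stretch could have been lost or given to either gene.

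Dtx3l had normalized counts of 588, 684 and 809 in control and 8919, 9479 and 11719 in LPS-treated PMφs. Parp9 had 583, 698 and 720 in control and 6985, 7460 and 9611 with LPS. Both genes therefore started at a similar count and were far higher with LPS. The log2 fold change was 3.86 for Dtx3l (SE 0.15, adjusted p = 7.92e-07) and 3.58 for Parp9 (SE 0.14, adjusted p = 9.57e-07). Per kb of exon, Parp9 was 1.05 to 1.20 times Dtx3l in the control libraries and 0.920 to 0.964 times Dtx3l in the LPS libraries, a small shift toward Dtx3l in which the groups did not overlap. This ratio was not tested.

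The coding genes that flank the 3 were added by position, after values of the 3 had been seen. Hspbap1, which encodes a protein that binds a heat shock protein, ends 4.4 kb below Parp14, and its mean was 124 in control and 190 in LPS-treated PMφs, a log2 fold change of 0.60 (adjusted p = 0.00863). Kpna1, an importin gene, begins 6.14 kb above Parp9 and had means of 1667 and 2003, a log2 fold change of 0.27 (adjusted p = 0.0868). Both were called, but with libraries rescaled to equal sums neither was, Hspbap1 being at 0.12 and Kpna1 at −0.21. The flanking genes were thus at 0.60 or less, against 3.58 or more in the 3 genes between them.

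**Figure D1:**
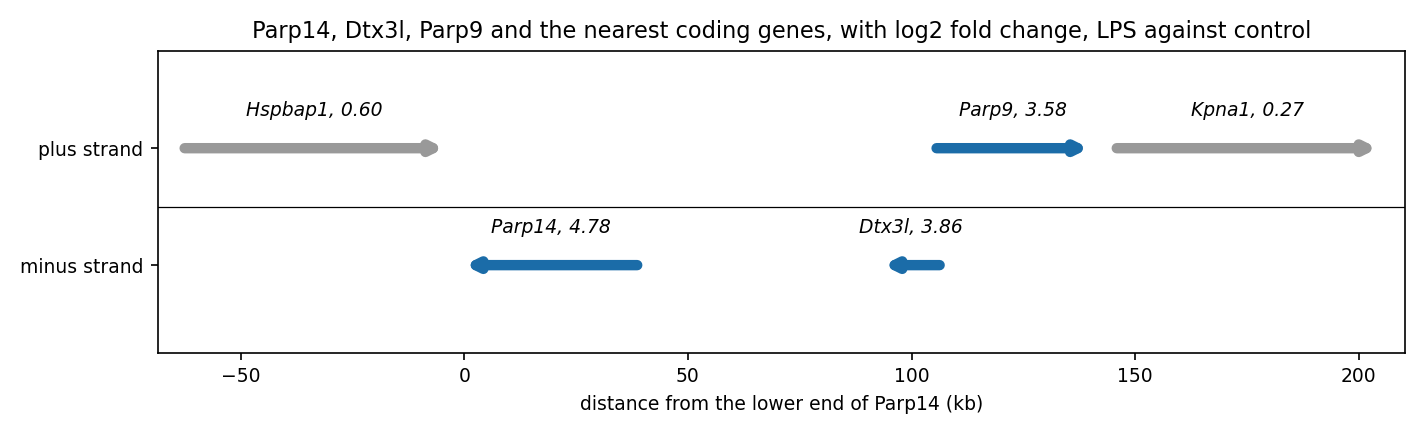
Map of Parp14, Dtx3l and Parp9 (blue) and the nearest coding gene on either side (gray), with distance in kb from the lower end of Parp14 on the x axis and the strand on the y axis, arrows pointing in the direction of transcription. The number beside each name is the log2 fold change of LPS-treated against control PMφs, 3.58 to 4.78 in the blue genes and 0.27 and 0.60 in the gray ones.

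Parp12 encodes an enzyme with zinc fingers and is found at 39086410 to 39118349 of chromosome 6 (minus strand). Its normalized count was 776, 763 and 883 in control and 15180, 14140 and 19248 in LPS-treated PMφs. After Parp14 it was the gene most raised, with a log2 fold change of 4.31 (SE 0.13, adjusted p = 3.32e-07).

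Parp10, Parp11 and Parp8 formed a lower tier, from 7.29-fold to 9.13-fold. Parp10, on chromosome 15 from 76231174 to 76243441, had 606, 542 and 614 in control and 4870, 3908 and 5291 with LPS, a log2 fold change of 2.99 (SE 0.13, adjusted p = 1.28e-06). Of its exonic bases, 205 or 4.8% lie in exons of Plec on the same strand, and how their reads were counted is not stated. Parp11, on chromosome 6 from 127446840 to 127494261, rose from 290, 279 and 327 to 1806, 2198 and 2601, a log2 fold change of 2.87 (SE 0.14, adjusted p = 3.12e-06). Parp8, on chromosome 13 from 116854820 to 117025537, was the least expressed of the 8 per length in control PMφs. It rose from 242, 245 and 252 to 1948, 2026 and 2912, a log2 fold change of 3.19 (SE 0.16, adjusted p = 2.68e-06). Its control libraries lay close together, with a spread of 2.08% that was below the counting error of up to 6.17%. Replicate 3 of the LPS group stood above the other libraries of that group.

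That LPS library was the highest of its group for all 7 raised genes, and control replicate 3 was the highest of its group for the same 7. The sum of normalized counts was also largest in LPS replicate 3, at 26384551 against 22590678 and 24195825 in the other two. Its part in the results was not tested, and with any library left out the 7 genes remained called, with log2 fold changes from 2.74 for Parp11 to 4.89 for Parp14.

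Parp1, the DNA damage sensor on chromosome 1 from 180568924 to 180601254, went the other way. Its normalized count was 1556, 1756 and 1502 in control and 683, 569 and 574 in LPS-treated PMφs. The log2 fold change was −1.40 (SE 0.11, adjusted p = 3.16e-05). Of the genes tested, 91.7% had a higher log2 fold change.

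**Figure D2:**
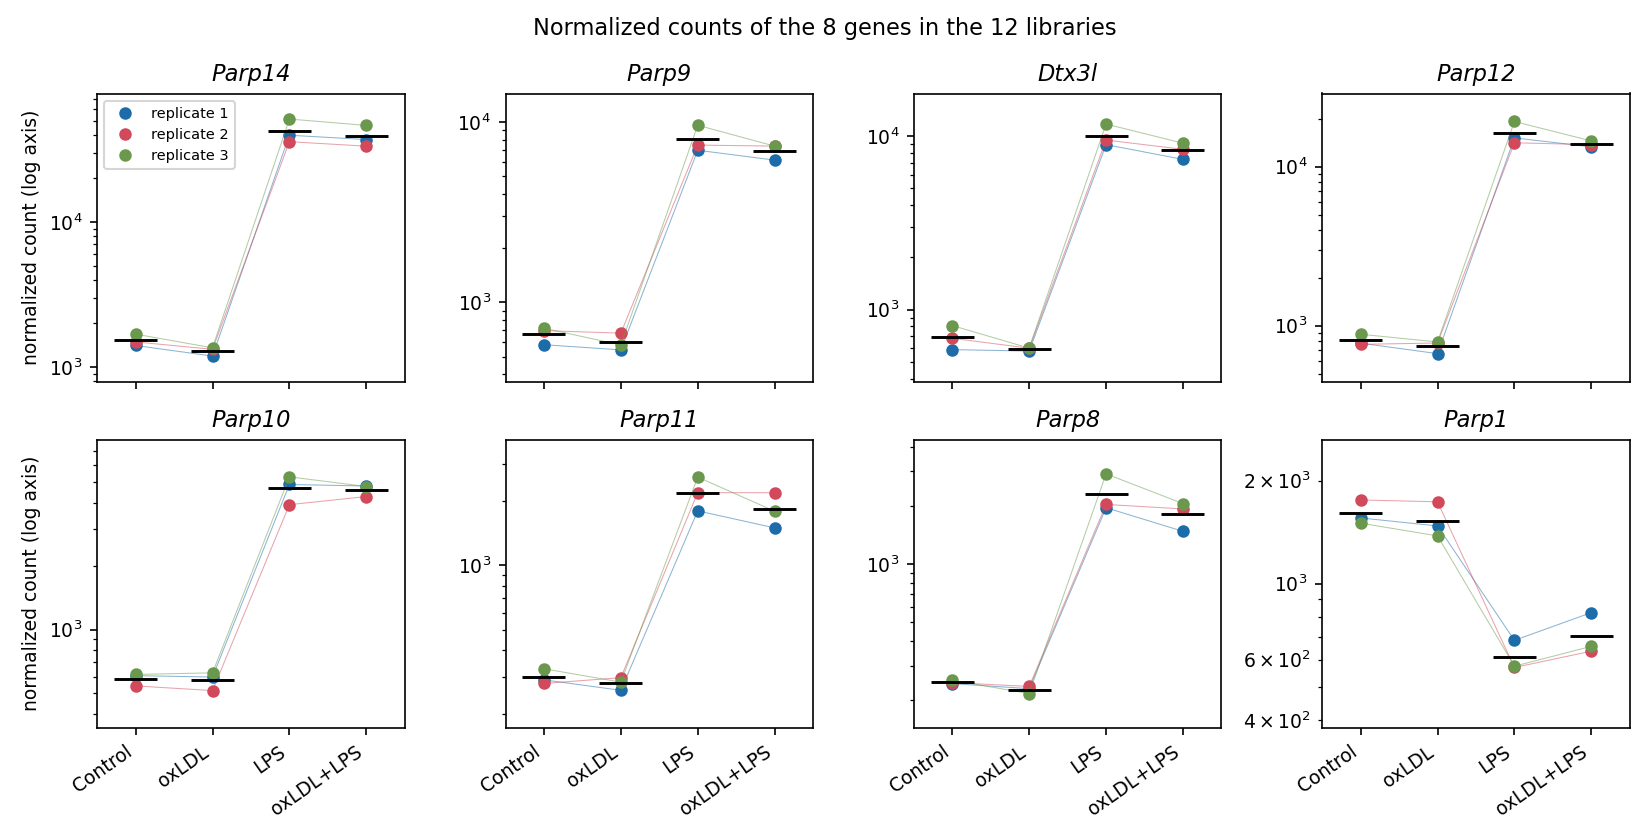
Normalized counts (y axis, logarithmic, with a range of its own in each panel) of the 8 genes in the 4 groups (x axis), a point per library colored by replicate number, thin lines joining libraries of 1 number and black bars at the means of 3. The 7 raised genes step up between the libraries without and with LPS, Parp1 steps down from 1379 or more to 823 or less, and the steps with oxLDL are small beside these.

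Since long genes collect more reads, levels of different genes were compared per kb of exon. In control PMφs Parp1 was highest at 303 ± 25.3 normalized counts per kb (SD, n = 3), followed by Parp12 at 202 ± 16.5 and Parp14 at 164 ± 15.4. Parp10, Parp9 and Dtx3l came next at 137, 137 and 121, each overlapping its neighbor in that order, and Parp11 at 42.5 ± 3.58 and Parp8 at 27.7 ± 0.58 were lowest. With LPS the order was led by Parp14 at 4539 ± 866 and Parp12 at 4052 ± 676, which overlapped. Dtx3l at 1754 ± 259 and Parp9 at 1646 ± 287 also overlapped, as did Parp11 at 313 ± 56.6 and Parp8 at 258 ± 60.3, with Parp10 between these pairs at 1097 ± 166. Parp1 was last at 115 ± 12.2, and its range did not overlap that of Parp8.

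The makeup of the group therefore changed with LPS. Of the summed level per kb of the 8 genes, Parp1 held 26.8% ± 2.73 (SD, n = 3) in control and 0.85% ± 0.18 in LPS-treated PMφs. Parp14 went from 14.4% ± 0.64 to 32.9% ± 1.03, and Parp12 from 17.8% ± 0.92 to 29.4% ± 0.27. Parp9 held nearly the same share in both, 12.04% ± 0.77 and 11.95% ± 0.71. These shares depend on each other, and they were not tested.

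**Figure D3:**
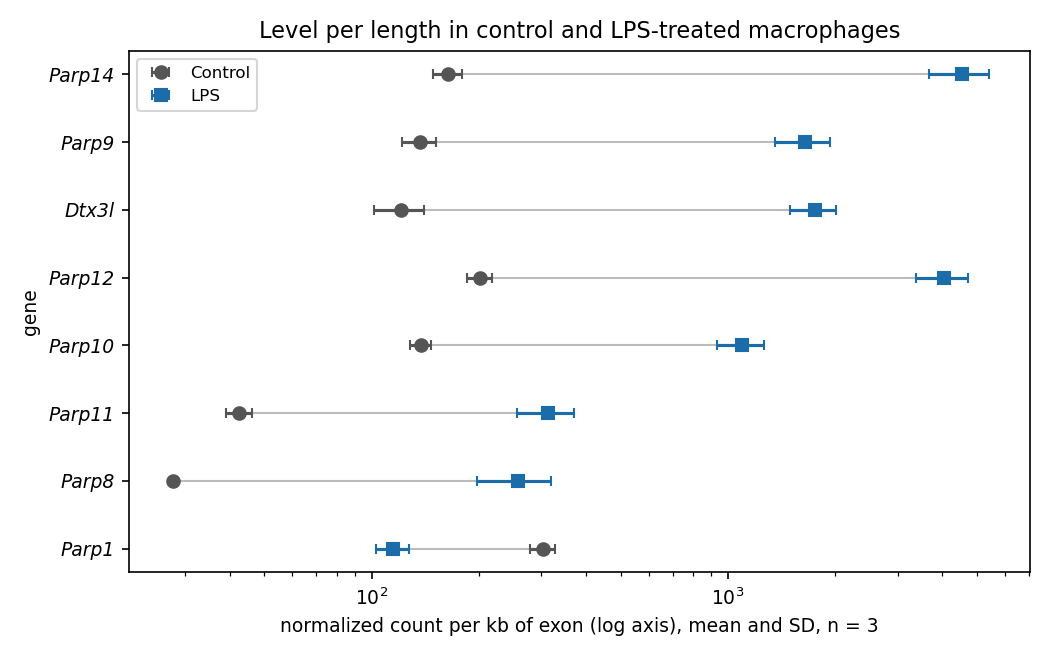
Normalized count per kb of exon (x axis, logarithmic) of the 8 genes (y axis) in control (circles) and LPS-treated (squares) PMφs, as means with SD of 3 libraries, gray lines joining the groups. Parp1 moves from the highest position at 303 to the lowest at 115, and Parp14 and Parp12 move to the top at 4539 and 4052.

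Sequence around the transcription start was taken from a table of RefSeq promoters (GRCm38.p6) with the 250 bases before and 50 after a start. Of the 8 genes, 5 were matched in it, Dtx3l, Parp1, Parp11, Parp12 and Parp8, and Parp9, Parp10 and Parp14 were not analysed here. The factors of the interferon pathway bind the interferon-stimulated response element (ISRE), searched as a pair of GAAA with any 2 bases between them, and the gamma-activated sequence (GAS), searched as TTCNNNGAA, both on either strand. Of all 32851 promoters in the table, 3.44% held the ISRE letters and 8.3% the GAS letters. Among the 5 genes only Parp11 held either, and it held both, 44 and 37 bases before its first listed start, where the matches overlap. The 100 bases before the start are shown for Parp11 and for Parp12 and Parp1, a strongly raised and a lowered gene without a match, with matches in capitals.
Parp11, chr6:127446740-127446839, plus strand: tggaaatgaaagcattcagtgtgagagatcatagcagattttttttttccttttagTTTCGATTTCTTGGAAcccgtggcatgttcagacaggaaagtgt
Parp12, chr6:39118350-39118449, minus strand: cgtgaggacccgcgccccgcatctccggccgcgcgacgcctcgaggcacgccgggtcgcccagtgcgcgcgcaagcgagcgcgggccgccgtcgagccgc
Parp1, chr1:180568791-180568890, plus strand: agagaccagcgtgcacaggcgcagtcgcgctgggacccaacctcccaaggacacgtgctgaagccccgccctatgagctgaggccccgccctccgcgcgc
The capitals in Parp11 run through the ISRE match on the minus strand into the GAS match. The windows of Parp12 and Parp1 are rich in C and G. A match is a string of letters and not a measured binding site, and its absence says only that these letters are not in the window.

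The genes whose levels ran most like those of the 3 neighbors were found by Pearson's r of log2 values over the 12 libraries. For Parp14 they included Stat2, Znfx1, Ifih1 and Ddx60 (r from 0.9989 to 0.9993), for Parp9 Mov10, Oasl2, Adar, Xaf1 and Tmem229b (r from 0.999 to 0.9994), and for Dtx3l Trim30d, AW112010, Gm8995, Stat2 and Irf1 (r from 0.9987 to 0.9992). Ifih1 and Ddx60 are RNA helicases of antiviral defense, Oasl2 and Adar are interferon-regulated RNA-binding proteins, and Stat2 and Irf1 are transcription factors of interferon signaling. The 12 libraries fall into those with and those without LPS, and that step sets r. Of 13465 genes, 11.2% had r over 0.95 with Parp14 and 11.7% with Parp9, so a high r is not particular to the genes named.

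The genes of interferon signaling rose with LPS as well. Of 13 listed, 12 were tested, and 11 were called higher and 0 lower, against 31.4% and 30.3% of all genes. The median log2 fold change was 3.08 against −0.000687 over all genes. Irf3, which is activated by phosphorylation, was at −0.16 (adjusted p = 0.305), and with libraries rescaled to equal sums it was called lower at −0.64. Stat2 rose from a mean of 818 ± 66.4 (SD, n = 3) in control to 18594 ± 3235 in LPS-treated PMφs, a log2 fold change of 4.49, and Irf9 rose from 605 ± 78.3 to 2555 ± 319, by 2.08 on that scale. The log2 fold changes of Parp14, Parp12, Dtx3l and Parp9, at 3.58 to 4.78, lay on either side of that of Stat2. Ifnb1, the interferon β gene, was listed at 0 in all libraries without LPS and at 8, 5 and 13 in the LPS libraries, too low for the filter.

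Among 24 targets of interferon, all 24 were called higher, against 31.4% of all genes. The median of the 24 was a log2 fold change of 7.26. The median of the 8 genes was 3.38. Mx1, a GTPase that blocks viruses, had a log2 fold change of 10.25 and Ifit1 one of 9.77. Dhx58 at 4.23, Oas3 at 4.01, Eif2ak2 at 3.82, Bst2 at 3.43 and Adar at 2.94 had log2 fold changes in the range of the 7 raised genes.

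Of the 9 other genes of the PARP family that were listed, 4 were called higher and 3 lower. Over all genes tested, 31.4% were called higher and 30.3% lower. The median log2 fold change of the 9 was −0.000967. Tiparp, which attaches single ADP-ribose units, rose by 1.65 on the log2 scale (adjusted p = 1.88e-04), Zc3hav1, the zinc finger antiviral protein, by 1.46 (adjusted p = 4.46e-05), Parp3 by 1.23 and Parp4 by 1.06. The lower ones were Parp16 at −1.23 (adjusted p = 2.43e-04), Parp2, which acts with Parp1 at DNA breaks, at −0.58 and Parp6 at −0.53. The tankyrases Tnks and Tnks2 were at −0.20 and −0.000967 and were not called. The largest increase among these 9 was smaller than the smallest among the 7 raised genes. The 7 and these 9 were put in separate lists with earlier results of these data known, so this gap is not a test. With libraries rescaled to equal sums, the 4 were still called higher and 5 were called lower.

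Of the other Deltex genes, 3 of 4 were tested. Dtx2 rose by 2.65 (adjusted p = 1.65e-05) and Dtx4 by 0.97 (adjusted p = 0.00521), while Dtx3, whose name Dtx3l shares, was at −1.22 (adjusted p = 5.05e-05). Of 7 tested enzymes that take ADP-ribose off again, 1 was called higher and 4 lower. Over all genes tested, 31.4% were called higher and 30.3% lower. Adprh, which frees arginine from ADP-ribose, rose by 1.16 (adjusted p = 1.42e-04). Oard1 at −1.09, Nudt16 at −0.92 and Macrod1 at −0.41 were called lower. So was Macrod2 at −0.94 (limma, adjusted p = 0.0753), which was near the floor at 13 to 17 in control and 5 to 11 with LPS. Its control libraries alone met the filter. Parg, which cuts the chains that Parp1 builds, was at 0.20 (adjusted p = 0.139), and with libraries rescaled to equal sums it was called lower at −0.28. Under that scaling 1 of the 7 was called higher and 6 lower, while of 12937 genes 2167 were called higher and 7214 lower.

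In PMφs with accumulated oxLDL, LPS changed the same 8 genes in the same directions. Of the 12883 genes tested in oxLDL+LPS against oxLDL, 28.1% were called higher and 26.3% lower, and all 8 genes were called, 7 higher and 1 lower. Parp14 had 1189, 1324 and 1356 with oxLDL and 37029, 33321 and 46340 with oxLDL and LPS, a log2 fold change of 4.90 (SE 0.13, adjusted p = 4.31e-07). Parp12 had a log2 fold change of 4.22, Dtx3l of 3.80, Parp9 of 3.53, Parp10 and Parp8 of 2.99 each and Parp11 of 2.69. Parp1 had 1474, 1734 and 1379 with oxLDL and 823, 635 and 656 with both, a log2 fold change of −1.12 (SE 0.13, adjusted p = 4.37e-04).

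Whether oxLDL changed the response to LPS was tested as an interaction over all 12 libraries. None of the 8 genes was called, and of 13465 genes 0% were called, with 416 at an unadjusted p under 0.05. With the replicate number as a block 0% were called too, with 967 at an unadjusted p under 0.05. The largest difference was that of Parp1, whose decrease was smaller with oxLDL by 0.28 on the log2 scale (95% confidence interval −0.11 to 0.67). The 95% interval of Parp14 ran from −0.34 to 0.59 around 0.13, that of Dtx3l from −0.47 to 0.35 around −0.06 and that of Parp8 from −0.68 to 0.27 around −0.20. These intervals are from the fit without the block.

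**Figure D4:**
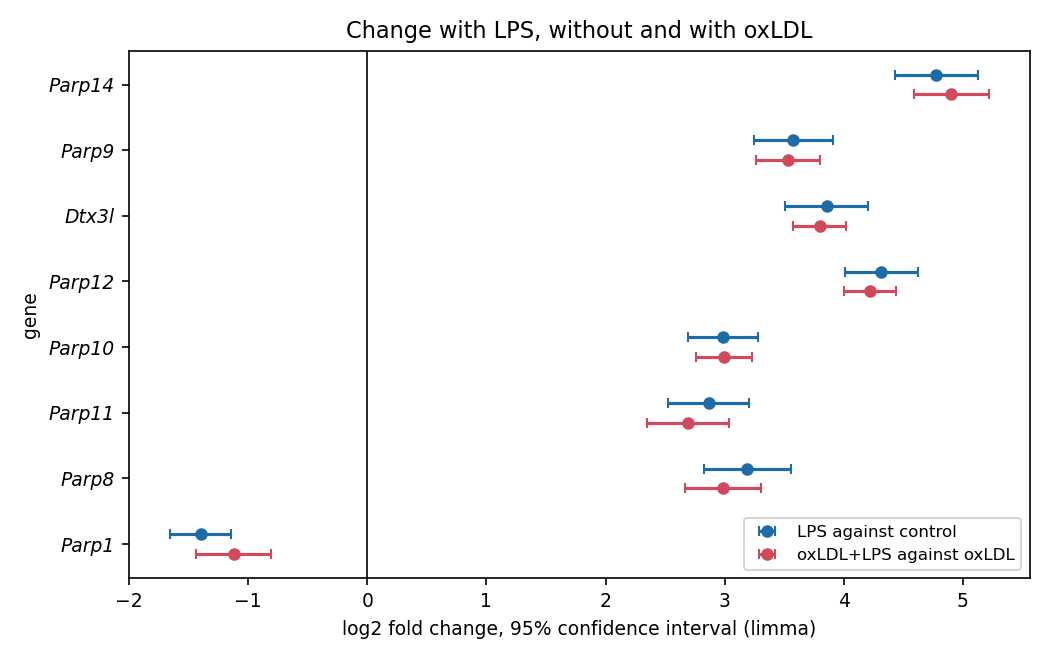
Log2 fold change (x axis) with LPS of the 8 genes (y axis), for LPS against control in blue and oxLDL+LPS against oxLDL in red, with 95% confidence intervals from limma. The intervals of the comparisons overlap for each gene, from 4.78 and 4.90 for Parp14 to −1.40 and −1.12 for Parp1.

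Without LPS, oxLDL moved the 8 genes little. All 8 had a log2 fold change below 0 in oxLDL-treated against control PMφs, from −0.24 for Parp14 to −0.02 for Parp10, with a median of −0.12 against −0.0051 over all genes. The control libraries are those of the LPS comparison. None was called, as 0% of 12734 genes were, with 379 at an unadjusted p under 0.05. Parp14 had 1407, 1489 and 1685 in control and 1189, 1324 and 1356 in oxLDL-treated PMφs, and Parp8 had 242, 245 and 252 against 228, 234 and 215. For these 2 genes every oxLDL library was below every control library, which held for 3.9% of the genes tested, and for the other 6 the groups overlapped. The spread of Parp8 was below its counting error in both groups, 2.08% against up to 6.17% in control and 4.3% against up to 6.76% with oxLDL.

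Within the pools the decrease of Parp14 was 0.24, 0.17 and 0.31 on the log2 scale in replicate numbers 1, 2 and 3. With the replicate number as a block Parp14 was called (log2 fold change −0.24, SE 0.05, adjusted p = 0.0239), as were 1.79% of genes higher and 2.91% lower. The block called 235 of 12359 genes without replicate number 1 and 129 of 12351 without number 2, and none of the 8 in either. Without number 3 it called 1283 of 12434 genes, Parp14 among them. Stat2 was also called lower in the block, at −0.25 (adjusted p = 0.0280), as were 3 of 23 tested interferon targets. Dtx3l was lower by 0.03, 0.19 and 0.43 in the 3 numbers (block adjusted p = 0.166) and Parp9 by 0.09, 0.05 and 0.31 (block adjusted p = 0.272). Parp14, Parp9, Dtx3l, Parp8 and Parp1 were lower in all 3 numbers, 5 of the 8, as were 19.3% of all genes tested.

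With LPS present, 7 of the 8 genes were lower with oxLDL than without it and Parp1 was higher, with a median log2 fold change of −0.20 against −0.0121 over all genes. None was called, as 0% of 12769 genes were, with 890 at an unadjusted p under 0.05. Dtx3l had 8919, 9479 and 11719 with LPS and 7335, 8383 and 9091 with oxLDL and LPS. Parp8 had 1948, 2026 and 2912 against 1473, 1921 and 2046. The groups overlapped for each of the 8 genes, whereas 6.37% of the genes tested had every oxLDL+LPS library below every LPS library.

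The replicate block called Dtx3l lower at −0.28 (SE 0.08, adjusted p = 0.0841) and Parp8 lower at −0.33 (SE 0.09, adjusted p = 0.0630), as it did 8.75% of genes, with 4.41% called higher. These calls, like those over all genes, depended on the pools. The block called 70 of 12250 genes without replicate number 1 and 0 of 12436 without number 3, and none of the 8 in either. Without number 2 it called 2945 of 12317 genes, Parp9, Dtx3l, Parp11, Parp12 and Parp8 among them. The differences in replicate number 2 were the smallest of the 3 for most of the genes, at −0.08 for Parp8, −0.02 for Parp9, −0.04 for Parp12 and 0 for Parp11, which had a count of 2198 in both libraries. In number 3 they were −0.51, −0.38, −0.41 and −0.53. Of the 8 genes, 5 (Parp14, Parp9, Dtx3l, Parp12 and Parp8) were lower in all 3 numbers, as were 24.4% of all genes tested, and Parp1 was higher by 0.27, 0.16 and 0.19.

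**Figure D5:**
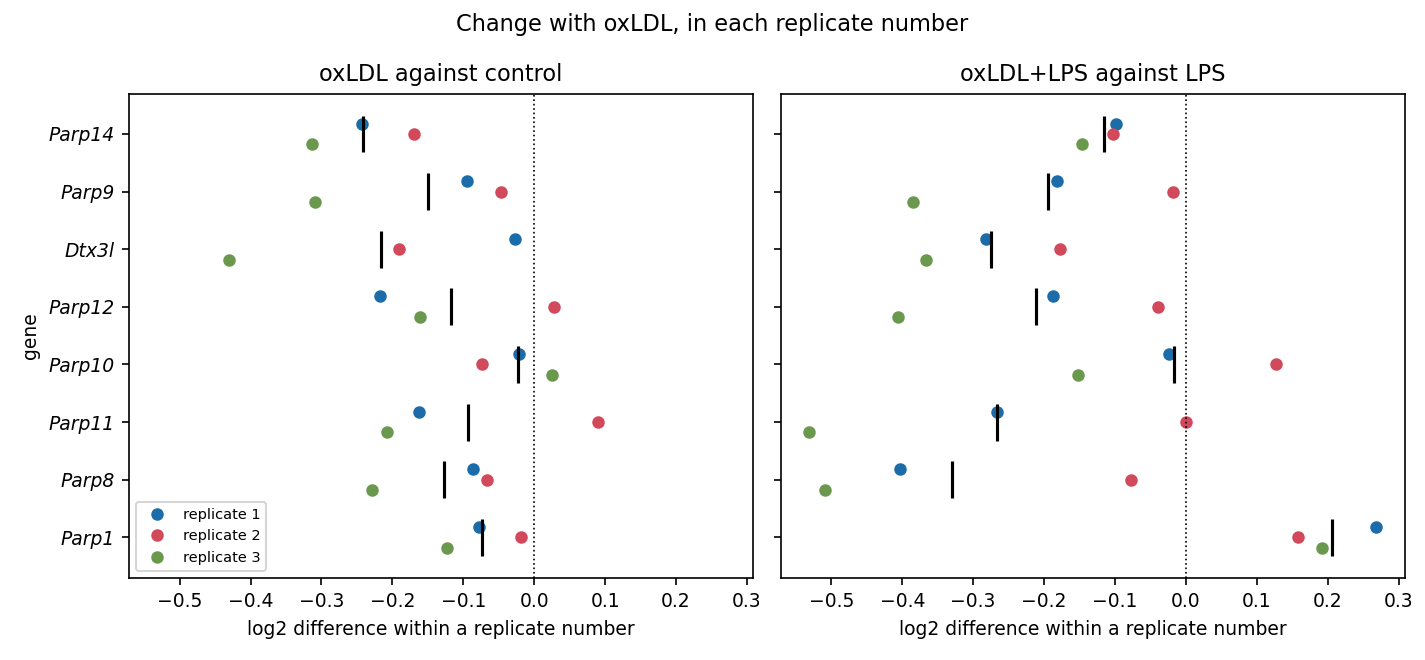
Log2 difference with oxLDL (x axis) of the 8 genes (y axis) within each replicate number (colored points), without LPS on the left and with LPS on the right, black bars marking the mean. Most points lie between −0.53 and 0, replicate number 3 tends to lie farthest to the left, and Parp1 with LPS lies to the right of 0 in all 3 numbers.

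Without the block none of the 8 genes was called in oxLDL+LPS against LPS. Their differences were smaller than those of the inflammatory genes listed under NF-κB, by a margin that varied with the gene. All 10 of those had values below 0 in oxLDL+LPS against LPS, with a median of −1.42, and the replicate block called all 10 lower while the fit without it called 0. Il6 was at −2.18, Il1b at −2.16 and Tnf at −0.67. Nfkbia lay closest to 0 at −0.42, not far from Parp8 at −0.33. The 24 interferon targets were all below 0 too, as were 6659 of the 12769 genes tested. Their median was −0.25, close to the −0.20 of the 8 genes, of which Parp1 was above 0. The block called 4 of the 24 lower, as it did 8.75% of all genes, and the fit without it called 0. Of the other PARP genes the block called Parp4 at −0.41 (adjusted p = 0.0240) and Tiparp at −0.37 (adjusted p = 0.0342) lower, and of the interferon signaling genes Ifnar1 at −0.42 (adjusted p = 0.0315) and Socs1, an inhibitor of that pathway, at −1.03 (adjusted p = 0.00654). The size of the change of one list against another was not tested.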

How the data were processed

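The 12 libraries were poly(A) libraries read in pairs. The authors trimmed adaptors with Trimmomatic (0.32), aligned to mm10 with STAR (2.5.1b) and assigned reads to the exons of GENCODE genes by featureCounts. The deposited values are a signal in whole numbers, with the spacing of counts that were scaled by a factor of each library and then rounded. How strand was used is not stated. Spreadsheet dates replaced 25 symbols (at most 0.165% of a library), which were left out.

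As the values were no longer raw counts, groups were compared with limma (3.58.1, R 4.3.3; lmFit, eBayes with trend; two-sided) on log2 of the value plus 1, over genes with at least 10 in at least 3 libraries of the fit. Each comparison used its 6 libraries and the interaction all 12. Calls had a Benjamini-Hochberg adjusted p under 0.1 over all genes tested. Fold changes are on the scale of log2(value + 1), which understates those of low genes.

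Cells were pooled and the pool divided among groups, the labels number the replicates 1 to 3, and same-numbered libraries deviated together from their group means over genes, with correlations of 0.666 to 0.724 for control and oxLDL, 0.648 to 0.727 for LPS and oxLDL+LPS, 0.41 to 0.618 for control and LPS and 0.332 to 0.664 for oxLDL and oxLDL+LPS. The numbers were therefore taken to pair the samples, and the fit with the number as a block is given where it changes a call. The study's methods speak of independent experiments and biological replicates in general, and the labels do not say which experiment a library came from. P-values of the fit without the block measure the spread between these pools. Those of the fit with the block measure how the difference between groups varied from pool to pool.

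The counts implied for the 8 genes were 219 to 41080 reads per library. Their counting error was at most 6.76%, and the spread between replicates was larger than the counting error in 29 of 32 combinations of gene and group. Positions and exonic lengths came from a later GENCODE release on GRCm38, matched by symbol, and Adgre1 was matched to the row of its older symbol Emr1.

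The 8 genes and the gene lists were chosen with earlier results of these data known. All 8 are named in every comparison. From other lists, called genes may be named, as may every gene of a list of at most 13. The 5 genes most like Parp14, Parp9 and Dtx3l were taken by Pearson's r. Some genes that these rules select are not reported here. Alternatives were a pseudocount of 10, no filter, a filter in every library, scaling to equal sums or equal upper quartiles, the block, a threshold of 0.05, all 12 libraries in 1 fit and leaving out each library or number.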

Additional observations from a re-analysis of the deposited data

How the results depend on the processing

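The 8 calls with LPS, in PMφs without and with oxLDL, were the same under all 17 alternatives of each comparison. The comparisons with oxLDL depended on the replicate block. In oxLDL against control the number of the 8 called was 1 with the replicate block, against 0 without it. With 1 library left out and no block it was 0 each time, and with the block and a number left out together it was 0 to 1. In oxLDL+LPS against LPS it was 2 with the replicate block, against 0. With 1 library left out and no block it was again 0 each time, and with the block and a number left out together it was 0 to 5, in fits that called 0 to 2945 of all genes. Over all genes the block called 599 against 0 in oxLDL against control and 1680 against 0 in oxLDL+LPS against LPS. The block changed no other call of the 8. Scaling to equal sums moved the median of all genes by −0.48 in LPS against control and by −0.39 in oxLDL+LPS against oxLDL, with the share of calls that were higher falling from 50.9% to 23.1% and from 51.7% to 23.4%. Values near 0 changed sign without being called. With equal sums Parp10 was at 0.0741 in oxLDL+LPS against LPS, and the interaction was 0.0481 for Parp9 and 0.0343 for Dtx3l. With equal upper quartiles the interaction of Parp10 was −0.0211. In the replicate block, Parp10 was at 0.00201 in oxLDL against control without number 2 and at 0.0515 in oxLDL+LPS against LPS without number 3, and the interaction was 0.0391 for Dtx3l without number 1 and −0.0901 for Parp10 without number 2. With a library or number left out, Parp10 ran from −0.0807 to 0.0587 in oxLDL against control and from −0.142 to 0.0765 in oxLDL+LPS against LPS, where Parp14 ran from −0.249 to 0.0322. The interaction then ran from −0.138 to 0.0925 for Parp9, −0.176 to 0.0577 for Dtx3l, −0.00759 to 0.274 for Parp14, −0.119 to 0.0997 for Parp10 and −0.185 to 0.0372 for Parp12. The cause of these changes was not tested.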

Other observations

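PARP enzymes consume NAD, and the genes that make it changed unequally with LPS. Of 8 listed, 6 were tested, 1 was called higher and 4 lower in LPS-treated against control PMφs. Over all genes tested, 31.4% were called higher and 30.3% lower. Nampt, the salvage enzyme that recycles nicotinamide, rose from 3533 ± 471 (SD, n = 3) to 21712 ± 1841, a log2 fold change of 2.63 (limma, adjusted p = 2.60e-06). Nmrk1, which starts from nicotinamide riboside, was at −1.54 (adjusted p = 1.56e-04), Nmnat3 at −1.303, Naprt, which starts from nicotinic acid, at −1.18 and Nadsyn1 at −0.80. Nmnat1 was at 0.38 (adjusted p = 0.113, and called with the replicate block at an adjusted p of 0.0583), and at −0.10 with libraries rescaled to equal sums.

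Of the other NAD consumers both tested genes were called higher, as were 31.4% of all genes tested. Cd38, a glycohydrolase at the cell surface, had a mean of 90.0 ± 16 (SD, n = 3) in control and 7028 ± 938 in LPS-treated PMφs, a log2 fold change of 6.28 (adjusted p = 1.74e-07), above that of each of the 8 genes. Bst1, its relative, rose by 1.00 (adjusted p = 0.00229). Bst1 was also higher with oxLDL in the replicate block, by 0.60 without LPS (adjusted p = 0.0127) and by 0.75 with it (adjusted p = 0.0311), and not called without the block (adjusted p = 1 and 0.748).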
